A study of Mus musculus with 5 samples.

Results

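Depletion of fibronectin mRNA by siRNA in cancer-associated fibroblasts (CAFs) was compared with a control siRNA across all genes that were measured well enough to give a ratio. A gene was compared when it reached at least 1 CPM, its read count scaled to the size of the library, in at least 1 of the 2 libraries, which held for 13009 of the 54636 genes in the count table (23.8%). The Fn1 siRNA library came from PDX CAFs transfected with siRNA against Fn1, and the control siRNA library from PDX CAFs transfected with a negative control siRNA, called scramble in its label. PDX CAFs are mouse fibroblasts that grew out of patient-derived xenografts of rectal cancer carried in nude mice, and they were immortalized with SV40 large T antigen, so both libraries share that oncogene. Whether they came from 1 isolate is not stated. Cells were transfected with a lipid reagent and used 48 h later, and the methods list more than 1 siRNA against mouse Fn1 without saying which was sequenced. For orientation, levels are also given in untreated PDX CAFs and in a pair of CAF cultures from transgenic mice, myosin IIA KO CAFs, which carry floxed Myh9 and a tamoxifen-induced Cre driven by the SMA promoter, and Cre- control CAFs, with tamoxifen given to the cultured cells. Each of these 5 conditions has 1 library, so no difference has a replicate check, no p-value was computed, and the intervals below cover counting error only.

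Fibronectin is a large secreted glycoprotein that fibroblasts assemble into fibrils at their surface. Assembly starts when integrin α5β1 binds the protein and the contractile cell stretches it, which opens sites through which fibronectin molecules join. Collagens, fibulins, fibrillins, latent TGF-beta binding proteins and tenascins are laid down on or beside these fibrils, and syndecans act as coreceptors. CAFs are known as a main source of this matrix in carcinomas.

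The Fn1 siRNA library held 23351433 counts and the control siRNA library 26596351, and the other 3 libraries held between 22961620 and 26347117. Mitochondrial transcripts took 0.855% of the counts with Fn1 siRNA and 0.853% with control siRNA. The labelled cell type was checked against marker lists. Of 12 fibroblast markers, 10 passed 1 CPM, led by Col1a1, Col1a2 and Vim, while Lum and Fap stayed below 1 CPM. None of 7 epithelial markers passed, with a summed level of 0.405 CPM in Fn1 siRNA CAFs and 0.231 CPM in control siRNA CAFs, and with 3 and 4 of them at 0 counts. Of 5 endothelial markers only Kdr passed, and the summed level was 4.60 and 4.08 CPM with Fn1 and control siRNA. Of 7 immune markers only Csf1r and Cd68 passed, summed over the list at 4.05 and 4.88 CPM, with 5 of the 7 at 0 counts in each library. Cd68, a lysosomal glycoprotein best known from macrophages, was at 1.44 CPM in Fn1 siRNA CAFs and 2.88 CPM in control siRNA CAFs.

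Fn1 itself (ENSMUSG00000026193, mouse chromosome 1, 71585520 to 71653200 on the minus strand of build mm10) was a large and well-counted difference. It had 28460 counts with Fn1 siRNA and 124202 counts with control siRNA. On the CPM scale after TMM normalization this was 1282 CPM (95% Poisson interval 1267 to 1297) in Fn1 siRNA CAFs, against 4778 CPM (4751 to 4804) in control siRNA CAFs, 4130 CPM in untreated PDX CAFs, 6905 CPM in myosin IIA KO CAFs and 7521 CPM in Cre- control CAFs. The Fn1 siRNA library was thus the lowest of the 5. It kept 26.6% of the control siRNA level, 3.76-fold lower, with a log2 ratio of -1.91 (95% counting interval -1.93 to -1.89). Fn1 took 0.122% of all counts with Fn1 siRNA and 0.467% with control siRNA, which moved it to rank 69 among all genes, against rank 7 with control siRNA. In a bulk library, fewer cells that express a gene and less of its RNA per cell cannot be told apart.

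The genes that lie closest to Fn1 among those compared stayed near their control levels. Atic, just below Fn1 on the chromosome, which encodes an enzyme of purine synthesis, was at 199.8 CPM with Fn1 siRNA and 198.3 CPM with control siRNA (log2 ratio -0.0023). On the same side, Bard1, a partner of the BRCA1 protein, had a log2 ratio of -0.11 and Ikzf2, a zinc finger transcription factor, one of -0.09. On the other side, Mreg, Pecr and Xrcc5 had log2 ratios of 0.12, 0.21 and 0.06, each with a counting interval that included 0.

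**Figure D1:**
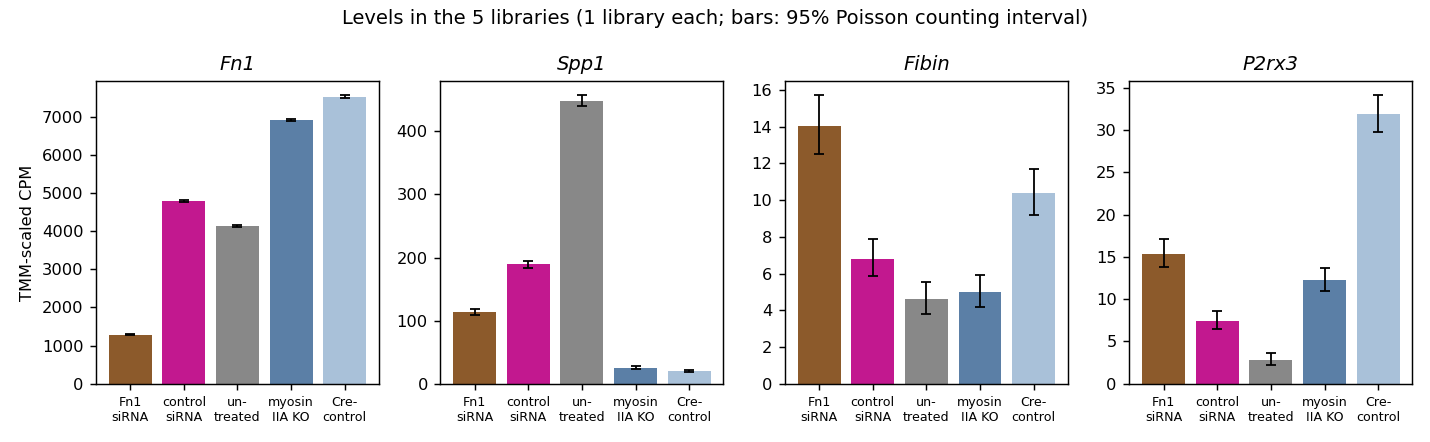
Level of Fn1, Spp1, Fibin and P2rx3 in TMM-scaled CPM (y axes from 0) in the 5 libraries, 1 library each, with 95% Poisson counting intervals. Fn1 is lowest in the Fn1 siRNA library, at 1282 CPM against 4778 CPM with control siRNA, and the other 3 genes have their own order among libraries.

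Spp1, Fibin and P2rx3 were the genes that mark this comparison besides Fn1. Spp1, which encodes osteopontin, a secreted integrin-binding glycoprotein, had 113 CPM in Fn1 siRNA CAFs (109 to 118) and 189 CPM in control siRNA CAFs (184 to 195), with 448 CPM in untreated, 25.7 CPM in myosin IIA KO and 20.01 CPM in Cre- control CAFs. Its log2 ratio was -0.76 (-0.83 to -0.69), so it was 1.69-fold lower. The level with control siRNA was itself below that of untreated cells, and the Fn1 siRNA library lay further down in the same direction. Fibin, a small secreted protein first described in fin bud development of fish, had 14.1 CPM with Fn1 siRNA (12.5 to 15.7) and 6.81 CPM with control siRNA (5.84 to 7.89), and 4.62 CPM in untreated PDX CAFs. P2rx3, an ATP-gated cation channel best known from sensory neurons, had 15.4 CPM with Fn1 siRNA (13.8 to 17.1) and 7.46 CPM with control siRNA (6.45 to 8.59), against 2.84 CPM in untreated PDX CAFs, 12.3 CPM in myosin IIA KO CAFs and 31.9 CPM in Cre- control CAFs. Both had a log2 ratio of 1.03, with counting intervals of 0.76 to 1.31 for Fibin and 0.77 to 1.29 for P2rx3. Fibin was highest in the Fn1 siRNA library among all 5, whereas Spp1 and P2rx3 lay inside the range of the other 4. Of 20 genes for ATP receptors and ATP-degrading enzymes, 10 were compared, and P2rx3 was the only one over 1.5-fold in either direction. P2rx4, its best-measured relative, had 27.1 CPM with Fn1 siRNA and 24.4 CPM with control siRNA, a log2 ratio of 0.14 (-0.03 to 0.30).

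Most of the transcriptome stayed close to its control level. The median log2 ratio over the 13009 genes was -0.0029, the middle 50% lay between -0.10 and 0.09, and 83.9% of genes lay within 1.2-fold, 96.1% within 1.5-fold and 99.1% within 2-fold. Over 2-fold there were 68 genes higher (0.523%) and 49 lower (0.377%), and over 1.5-fold 250 higher (1.92%) and 254 lower (1.95%). Most of the 2-fold differences belonged to scarce transcripts. Of the 68 higher genes 49 were under 3 CPM in both libraries, as were 37 of the 49 lower genes, and only 8 and 5 reached 10 CPM. The median level of the 68 higher genes was 1.87 CPM, of the 49 lower genes 1.31 CPM, and of all genes compared 29.96 CPM (taking the higher of the 2 libraries). Just outside the 2-fold line at 10 CPM or more were the pseudogene Rpl35a-ps2 at 1.01, Fibin and P2rx3 at 1.03, and Cnp, a myelin and cytoskeleton phosphodiesterase, at -1.002 (5.50 CPM with Fn1 siRNA and 10.9 CPM with control siRNA). Just inside it were Gpnmb, a transmembrane glycoprotein, at 0.95 (11.8 and 6.08 CPM) and the mitochondrial mt-Co3 at -0.83 (23.7 and 41.5 CPM). Summed with Gm28437, a gene that shares its sequence, mt-Co3 was at -0.42 (42.3 and 56.0 CPM).

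The spread of log2 ratios was narrower in better-counted genes up to 300 CPM. Between the Fn1 siRNA and control siRNA libraries the interquartile range was 0.543 for genes of 1 to 3 CPM, 0.116 for genes of 100 to 300 CPM and 0.128 for genes of 300 CPM or more. Counting error alone would give 0.438, 0.0465 and 0.0255, so among well-counted genes the libraries differed by more than counting error. The same range at 100 to 300 CPM was 0.28 between myosin IIA KO and Cre- control CAFs and 0.30 between control siRNA and untreated PDX CAFs. With no replicate, the part of the remaining spread that comes from handling of the cultures and libraries cannot be told apart from an effect of the siRNA. At 300 CPM or more the median itself moved to 0.05, and 71.3% of 609 genes at that level in at least 1 library had a positive ratio, against 49.1% of all genes compared.

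**Figure D2:**
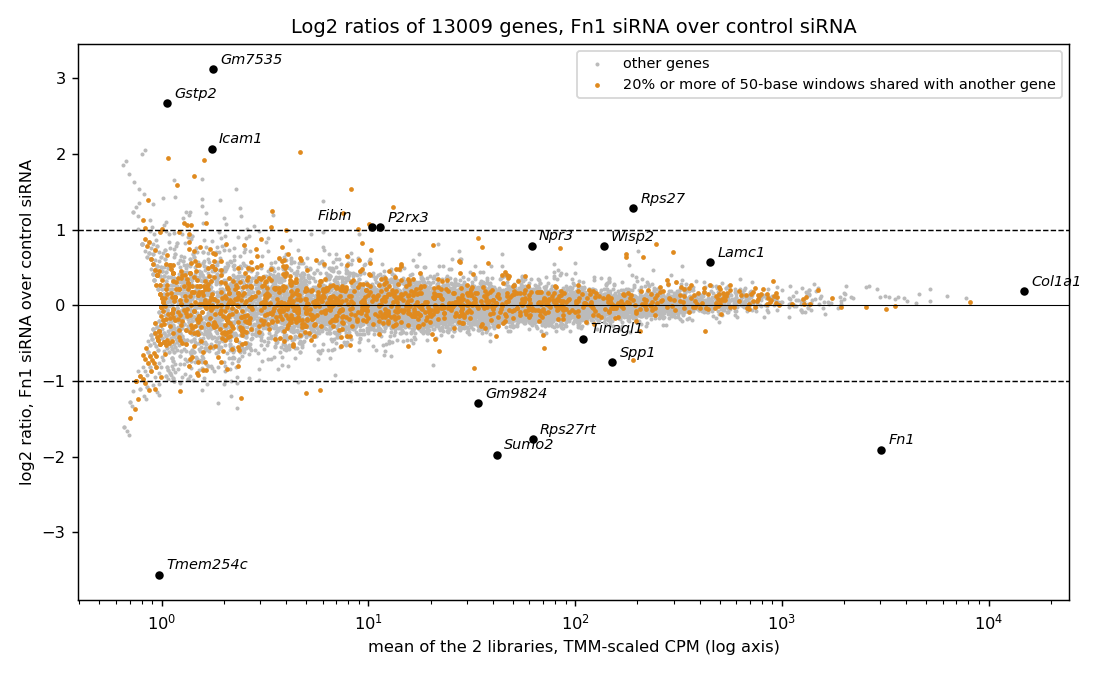
Log2 ratio of Fn1 siRNA over control siRNA (y axis) against the mean level of both libraries in TMM-scaled CPM (log x axis), 1 point per gene for 13009 genes, with dashed lines at 2-fold and named genes in black. The cloud narrows to the right, Fn1 lies far below the other genes of its level, and many of the genes past 2-fold share sequence with other genes (orange).

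**Figure D3:**
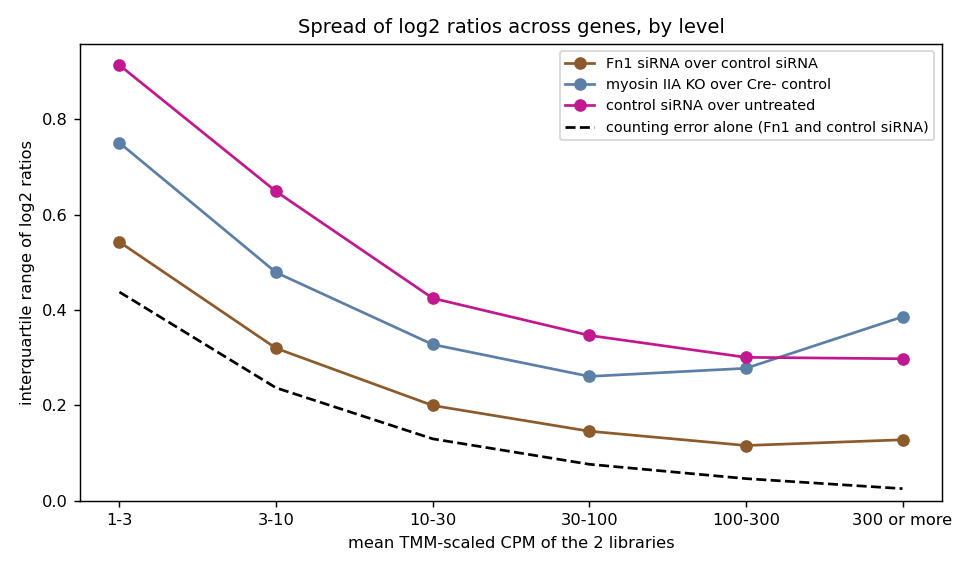
Interquartile range of log2 ratios across genes (y axis, from 0) in 6 bins of mean TMM-scaled CPM (x axis) for Fn1 siRNA over control siRNA and for 2 other pairs of libraries, with the range that counting error alone gives (dashed). The Fn1 siRNA comparison has the smallest spread of the 3 in every bin, and stays above counting error.

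Sequence shared with another gene was frequent among the larger ratios. For each gene compared, the share of 50-base windows of its longest transcript that also occur in a transcript of another gene was computed, and 1351 of 12951 genes with a value (10.4%) had at least 20% of windows in common with another gene. Among genes over 2-fold this held for 36 of 116 (31.0%), and among those over 2-fold at 10 CPM or more for 9 of 13. The 4 that shared less were Fn1, Cnp, Fibin and P2rx3. Where a read can come from either of a pair of genes, the count of each depends on how the counting assigned it, and how such reads were counted is not stated. Printed next are the sequences of 2 pairs of genes that are identical over the stretch shown and had ratios of opposite sign, from GENCODE M21 transcripts, with the start codon and, where reached, the stop codon in capitals. The open reading frame of Rps27 (chromosome 3) and that of Rps27rt (chromosome 9) are the same at all 255 bases, and the first 286 bases of the Sumo2 reading frame (chromosome 11) are the same as the whole of Gm10241, a processed pseudogene on chromosome 16.
Rps27 and Rps27rt: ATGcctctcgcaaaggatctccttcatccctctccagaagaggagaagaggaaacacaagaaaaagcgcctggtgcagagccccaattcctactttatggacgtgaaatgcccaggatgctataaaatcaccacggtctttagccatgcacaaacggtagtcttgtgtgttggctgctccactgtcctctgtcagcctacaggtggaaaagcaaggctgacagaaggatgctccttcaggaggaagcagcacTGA
Sumo2 and Gm10241: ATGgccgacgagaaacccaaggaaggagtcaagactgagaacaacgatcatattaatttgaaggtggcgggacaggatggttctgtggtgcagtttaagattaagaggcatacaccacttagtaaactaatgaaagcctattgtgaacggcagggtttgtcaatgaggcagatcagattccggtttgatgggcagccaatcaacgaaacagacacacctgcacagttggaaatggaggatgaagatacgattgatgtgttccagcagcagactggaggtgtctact

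Rps27 encodes a protein of the small ribosomal subunit, and Rps27rt is an intronless copy of it. Rps27 had 272 CPM with Fn1 siRNA and 111 CPM with control siRNA, and 215 CPM in untreated PDX CAFs, a log2 ratio of 1.28 (1.218 to 1.347). Rps27rt went the other way, with 28.5 CPM with Fn1 siRNA and 96.2 CPM with control siRNA, and 89.1 CPM in untreated PDX CAFs, a log2 ratio of -1.77 (-1.90 to -1.64). Summed with its copies that share 10% or more of its windows, Rps27 stood at 300.4 CPM with Fn1 siRNA and 207.0 CPM with control siRNA, a log2 ratio of 0.52 (0.47 to 0.58). The difference of the pair together was therefore smaller than that of either gene. Sumo2, which encodes a small ubiquitin-like modifier, had 17.1 CPM with Fn1 siRNA and 66.7 CPM with control siRNA, against 83.2 CPM in untreated PDX CAFs, a log2 ratio of -1.98 (-2.14 to -1.82), the largest lower value at 10 CPM or more. Its copy Gm10241 had 44.7 CPM with Fn1 siRNA and 26.0 CPM with control siRNA, a log2 ratio of 0.77 (0.63 to 0.91). The sum of Sumo2 and 7 copies was 64.4 CPM with Fn1 siRNA and 94.9 CPM with control siRNA, a log2 ratio of -0.57 (-0.67 to -0.48). Of 12 genes of the SUMO pathway, Sumo2 was the only one with a counting interval beyond 1.2-fold, and the median of the 12 was -0.0011.

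Other ratios nearly vanished in such sums. Gstp2, a glutathione transferase, was at 1.85 CPM with Fn1 siRNA and 0.269 CPM with control siRNA (log2 ratio 2.67 from 41 and 7 counts), but with its near-identical neighbour Gstp1 and a pseudogene the sum was 159.6 and 162.1 CPM, a log2 ratio of -0.04. Gm9824, a processed pseudogene of Pebp1, had a log2 ratio of -1.29, and the sum with Pebp1 and another copy one of 0.05 (302.2 and 289.0 CPM). Rpl17, a protein of the large ribosomal subunit, had a log2 ratio of 0.68 (219 and 135 CPM) and its copy Rpl17-ps10 one of -0.72 (145 and 236 CPM), and with 10 copies the sum was 488.5 CPM with Fn1 siRNA and 484.5 CPM with control siRNA. Sarnp, an mRNA export factor, had a log2 ratio of -0.60 alone and of 0.07 with its copy. By contrast, 1700047I17Rik2, whose windows all occur in Fam177a, kept a log2 ratio of 1.97 in the sum, since Fam177a had 0 counts with Fn1 siRNA and 2 with control siRNA. Single ratios of these genes are therefore uncertain, and so are those of overlapping genes, because whether counting used strand is not stated.

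When either library had to reach 100 CPM, 2490 genes were left, of which 96.8% lay within 1.2-fold, 99.5% within 1.5-fold and 12 genes beyond it. Of these 12, 8 shared 20% or more of their windows with other genes (Rps27, Rps29, Rpl21, Rps27a, Rpl17, Rpl38, Gm11361 and Rpl17-ps10). The other 4 were Fn1, Spp1, Wisp2 and Rps28. Wisp2, also called Ccn5, a matricellular protein of the CCN family, had 175 CPM with Fn1 siRNA and 101 CPM with control siRNA, 108 CPM in untreated PDX CAFs, 514 CPM in myosin IIA KO CAFs and 767 CPM in Cre- control CAFs. Its log2 ratio was 0.78 (0.71 to 0.85), and control siRNA and untreated cells lay close to each other. Rps28, a protein of the small ribosomal subunit, had 250.4 CPM with Fn1 siRNA and 151 CPM with control siRNA (log2 ratio 0.72, 0.66 to 0.78).

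A wider set was found by asking that the whole counting interval lie beyond 1.2-fold. Over all genes compared this held for 169 genes higher (1.30%) and 68 lower (0.523%), and at 100 CPM or more for 33 higher (1.33%) and 7 lower (0.281%). The 7 lower genes were Fn1, Spp1, Rpl17-ps10, Tinagl1, Malat1, Prl2c3 and Prl2c2. Tinagl1, a secreted protein of basement membranes, had 93.3 CPM with Fn1 siRNA and 126 CPM with control siRNA, and 77.8 CPM in untreated PDX CAFs (log2 ratio -0.44, -0.52 to -0.36). Malat1, a nuclear long noncoding RNA, had 163 CPM with Fn1 siRNA and 206 CPM with control siRNA (-0.36, -0.42 to -0.30). Prl2c2 and Prl2c3, near-identical proliferin genes of the prolactin family, had 379 and 183 CPM with Fn1 siRNA and 475 and 229 CPM with control siRNA, a log2 ratio of -0.34 each. Their sum with 3 further copies gave the same value, -0.34 (-0.37 to -0.30).

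Of the 33 well-counted genes that were higher, 11 encode ribosomal proteins, 1 is Gm11361, which shares 60.7% of its windows with Rps18, and 21 are other genes with little shared sequence, with log2 ratios between 0.29 and 0.78. They include secreted matrix and surface proteins (Wisp2, Lamc1, Lama4, Fbln5, Ltbp2, Col12a1, Aspn and the heparan sulfate proteoglycan Sdc2), enzymes of amino acid metabolism and tRNA charging (Cth, Psph and Nars), secreted factors (Ptx3, Serpinf1 and Cxcl1), and genes of other kinds (Cat, Hs6st2, Cyb5r1, Scpep1, Ero1l, Vldlr and Marcks). Ptx3, a soluble pattern recognition protein of innate immunity that also binds hyaluronan matrices, had 387 CPM with Fn1 siRNA and 268 CPM with control siRNA, and 182 CPM in untreated PDX CAFs (log2 ratio 0.52, 0.47 to 0.56). Serpinf1, which encodes the antiangiogenic serpin PEDF, had 1584 CPM with Fn1 siRNA and 1288 CPM with control siRNA (0.29, 0.26 to 0.31). Catalase, Cat, had 103 CPM with Fn1 siRNA and 76.6 CPM with control siRNA (0.42, 0.33 to 0.50). At lower levels, Npr3, the clearance receptor of natriuretic peptides, had 78.5 CPM with Fn1 siRNA and 45.1 CPM with control siRNA, and 50.01 CPM in untreated PDX CAFs (0.79, 0.68 to 0.89). Cdsn, an adhesion protein of cornified epithelium, had 27.9 CPM with Fn1 siRNA and 15.8 CPM with control siRNA (0.81, 0.63 to 0.99).

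**Figure D4:**
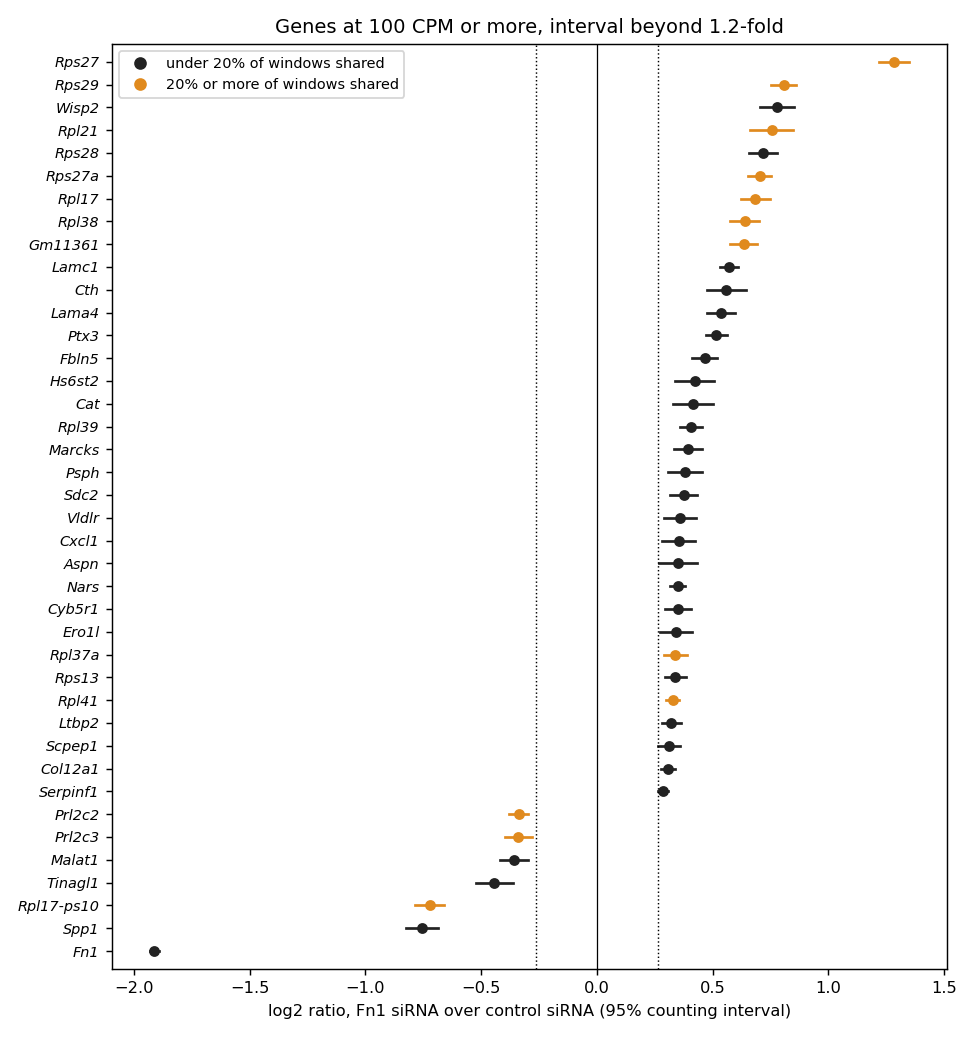
Log2 ratio of Fn1 siRNA over control siRNA (x axis) with 95% counting intervals for the 40 genes at 100 CPM or more whose interval lies wholly beyond 1.2-fold (dotted lines), orange where 20% or more of the windows are shared with another gene. The 33 higher genes outnumber the 7 lower genes, and Fn1 lies far from all others.

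Several laminin genes were higher with Fn1 siRNA. They belong to a list of basement membrane genes that was put together after these values had been seen. The list leaves out other genes of basement membranes, among them Tinagl1 at -0.44, Col18a1 at -0.11 and Col4a5 at 0.18. Its counts and median therefore depend on which genes were picked. Laminins are trimers of an α, a β and a γ chain, and Lamc1 encodes the γ chain of most of them. Lamc1 had 539 CPM with Fn1 siRNA and 359.7 CPM with control siRNA, and 505 CPM in untreated PDX CAFs, a log2 ratio of 0.57 (0.53 to 0.61). Lama4 had 217 CPM with Fn1 siRNA and 148 CPM with control siRNA, and 228 CPM in untreated PDX CAFs (0.54, 0.47 to 0.60). Lama5 had 94.1 CPM with Fn1 siRNA and 63.7 CPM with control siRNA, and 71.4 CPM in untreated PDX CAFs (0.55, 0.46 to 0.64). Lama2 had 7.21 and 4.77 CPM (0.58, 0.24 to 0.93), Lamb1 500.4 and 414 CPM (0.26, 0.22 to 0.30) and Lamb2 419 and 376 CPM (0.14, 0.10 to 0.18) with Fn1 siRNA and control siRNA. For Lamc1 and Lama4 the control siRNA library was lower than both the Fn1 siRNA and the untreated library. Of 15 genes of the list that were compared, 11 had a counting interval wholly above 0 and 3 wholly below, against 14.5% and 13.2% of all genes and 777 (31.2%) and 498 (20%) of the 2490 genes at 100 CPM or more, and the median was 0.18 against -0.0029 over all genes. The 3 lower ones were Agrn at -0.09, Hspg2, the gene of perlecan, at -0.04, and the laminin-binding nidogen Nid1 at -0.03.

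Collagen genes were slightly higher on the whole. Of 23 collagen chains compared, 16 had an interval above 0 and 1 below, with a median of 0.15. The same held for 14.5% and 13.2% of all genes and for 31.2% and 20% of those at 100 CPM or more, a level that 17 of the 23 reached. The median level of the chains was 495 CPM, and genes at 300 CPM or more had a median log2 ratio of 0.05. Col1a1, the most abundant gene of the list, had 15862 CPM with Fn1 siRNA and 13805 CPM with control siRNA, a log2 ratio of 0.19 (0.18 to 0.19). Col3a1 was at 0.21, Col5a2 at 0.25 and Col12a1, which decorates collagen fibrils, at 0.31 (798 and 639.8 CPM). Col11a1, a minor fibrillar collagen known as a CAF marker, had the largest ratio, 0.71 (0.55 to 0.88), with 34.2 CPM with Fn1 siRNA and 20.7 CPM with control siRNA, but 43.4 CPM in untreated PDX CAFs. Col18a1, a basement membrane collagen, was at -0.11 (-0.16 to -0.06) and was the 1 lower chain. Collagen processing and crosslinking genes had a median of 0.08, with 18 of 25 intervals above 0 and 1 below and 23 of the 25 genes at 100 CPM or more, led by lysyl oxidase Lox at 0.24 (2774 and 2330.4 CPM).

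Small leucine-rich proteoglycans bind collagen fibrils and growth factors. Of 13 such genes 8 were compared, 7 with an interval above 0 and none below, against 14.5% and 13.2% of all genes, and the median was 0.35, the largest of any list with 8 or more genes. The members with larger ratios were scarce, and the median of the 3 at 100 CPM or more was 0.20. Biglycan, Bgn, the abundant member, was at 0.06 (4126.5 and 3922 CPM), while Aspn, asporin, had 109 CPM with Fn1 siRNA and 84.5 CPM with control siRNA (0.35, 0.27 to 0.43), below the 177 CPM of untreated PDX CAFs. Fmod, fibromodulin, had 14.9 and 11.1 CPM (0.41, 0.18 to 0.64) with Fn1 and control siRNA. Elastic fibre genes had a median of 0.12 over 14 genes. Fbln5, an integrin-binding fibulin that organizes elastic fibres, had 276 CPM with Fn1 siRNA and 198 CPM with control siRNA (0.47, 0.41 to 0.52), and Ltbp2 428 and 339.7 CPM (0.32, 0.28 to 0.36). Efemp1, another fibulin, lay on the other side at -0.26 (-0.33 to -0.20).

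Matricellular proteins, which modulate contact of cells with the matrix, spread to both sides. Of 17 compared, 11 had an interval above 0 and 2 below, against 14.5% and 13.2% of all genes, and the median was 0.20. At 100 CPM or more, a level that 10 of the 17 reached, the shares over all genes were 31.2% and 20%. Besides Wisp2, Ctgf had 2245 CPM with Fn1 siRNA and 1859 CPM with control siRNA (0.26, 0.24 to 0.28), both far above the 290.4 CPM of untreated PDX CAFs, while its relative Cyr61 was at 0.01. Thrombospondin-coding Thbs1 was at 0.11 and Thbs2 at 0.24, and Sparc at 0.15. The 2 lower genes were Spp1 and Tnxb, a tenascin, which had 8.74 CPM with Fn1 siRNA and 13.1 CPM with control siRNA (-0.59, -0.86 to -0.34).

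Genes that receive or assemble fibronectin stayed nearer to their control levels. Of 28 fibronectin receptor and fibril assembly genes compared, 12 had an interval above 0 and 5 below, with a median of 0.06. Of these 28, 21 were at 100 CPM or more, where 31.2% of all genes had an interval above 0 and 20% below. Itga5 and Itgb1, the chains of the main fibronectin integrin, had 1266 and 2067.5 CPM with Fn1 siRNA and 1210 and 1942 CPM with control siRNA, log2 ratios of 0.05 and 0.08. Itgav and Itgb5, chains of another fibronectin and vitronectin receptor, were at 0.18 and 0.25. The syndecan Sdc2, a heparan sulfate coreceptor, had 224 CPM with Fn1 siRNA and 171 CPM with control siRNA (0.38, 0.32 to 0.43) and was the only one of the 28 with an interval beyond 1.2-fold, whereas Sdc4 was at 0.04 (-0.01 to 0.09). Plaur, the urokinase receptor, was at -0.13 and the adaptor Pxn at -0.14. Of 30 integrin adhesome genes, 11 had an interval above 0 and 7 below, and the median was 0.03. Of these 30, 17 were at 100 CPM or more. Itga1 had the largest ratio at 10 CPM or more, 0.51 (0.32 to 0.71), and was the only one with an interval beyond 1.2-fold. Itga11 was at 0.42 and Nedd9 at 0.36.

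Nearly all genes of amino acid supply were slightly higher with Fn1 siRNA, in a list also drawn up after Cth, Psph and Nars had come out among the well-counted genes. It held 30 genes for amino acid synthesis, transport and tRNA charging, of which 29 were compared. Of these, 28 had a counting interval wholly above 0 and none wholly below, against 14.5% and 13.2% of all genes and 31.2% and 20% of genes at 100 CPM or more, where 25 of the 29 lay. The median was 0.20. The median level of the list was 338 CPM. Genes at 300 CPM or more had a median log2 ratio of 0.05, with 71.3% of 609 genes positive. Each shift was small, and 5 of the 29 had an interval beyond 1.2-fold on the higher side. The share was 1.30% over all genes and 1.33% at 100 CPM or more. Cth, Psph and Nars are among the 5 by the way the list was drawn up, so this count is no separate result. Cth, which makes cysteine from cystathionine, had 119 CPM with Fn1 siRNA and 80.0 CPM with control siRNA, and 45.4 CPM in untreated PDX CAFs (0.56, 0.48 to 0.64). Slc7a3, a transporter of cationic amino acids, had 40.1 CPM with Fn1 siRNA and 29.4 CPM with control siRNA (0.44, 0.30 to 0.58). Psph, the last enzyme of serine synthesis, had 139.9 CPM with Fn1 siRNA and 107 CPM with control siRNA (0.38, 0.30 to 0.45), and Slc7a11, which imports cystine, 88.9 and 68.5 CPM (0.36, 0.27 to 0.46). Nars, which charges tRNA with asparagine, had 705 CPM with Fn1 siRNA and 548 CPM with control siRNA (0.35, 0.32 to 0.38). For these 5 genes the untreated PDX CAFs were lowest of the 3 PDX libraries, at 13.6 CPM for Slc7a3, 83.0 CPM for Psph, 36.0 CPM for Slc7a11 and 415 CPM for Nars.

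Many of these genes are known targets of the transcription factor ATF4. Of 23 genes of the unfolded protein and integrated stress response, a list that shares Asns, Chac1 and Sesn2 with the amino acid genes, 16 had an interval above 0 and none below, and the median was 0.10. Of the 23, 16 were at 100 CPM or more, where the shares over all genes were 31.2% and 20%. Atf4 mRNA had 570.1 CPM with Fn1 siRNA and 523 CPM with control siRNA (0.11, 0.08 to 0.15). Trib3 and Ddit3, stress-induced regulators, were at 0.27 each, and the endoplasmic reticulum chaperone Hspa5 at 0.23 (1614 and 1366 CPM), while Calr and Dnajc3 were at 0.01 and -0.04. Without the 3 shared genes, the 26 other amino acid genes had a median of 0.21, with 25 above 0. The share above 0 was 49.1% over all genes and 71.3% at 300 CPM or more. These 26 still hold Cth, Psph and Nars, after which the list was drawn up. A part of ATF4 in either list was not tested.

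Ribosomal protein genes formed the other group among the well-counted genes, picked by symbol after values had been seen. Of 83 such genes, 72 had a counting interval above 0 and 2 below, against 31.2% and 20% of all genes at 100 CPM or more, where 70 of the 83 lay. The median was 0.17, and the summed level was 42920 CPM with Fn1 siRNA, 38090 CPM with control siRNA and 40190 CPM in untreated PDX CAFs. The median level of the 83 was 441 CPM, and genes at 300 CPM or more had a median log2 ratio of 0.05. Of the 83, 56 shared 20% or more of their windows with other genes. Rps29 had 316 CPM with Fn1 siRNA, 179 CPM with control siRNA and 226 CPM in untreated PDX CAFs (0.81, 0.75 to 0.86), and with its copies a log2 ratio of 0.78. Rps27a had 372 CPM with Fn1 siRNA and 226 CPM with control siRNA, and with its copies a log2 ratio of 0.64, while that of Rpl21 was 0.75 alone and 0.23 with 12 copies. The abundant members Rplp0 and Rpsa were at -0.02 and 0.09.

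The ratio also depended on gene length. When the 9072 protein-coding genes that reached 10 CPM were split into 5 groups of nearly equal size by the length given in the table, the median log2 ratio was 0.04 in the shortest genes, 0.01, -0.0044 and -0.02 in the next groups, and -0.03 in the longest, with a Spearman correlation across genes of -0.22. It did not depend on GC content in this way, with medians between -0.0051 and 0.0038. The median length was 1739 bases for the ribosomal protein genes, 3856 bases for the amino acid genes and 8039 bases for the basement membrane genes, which lie in length groups 1, 2 and 4. The list medians of 0.17, 0.20 and 0.18 were larger than those of these length groups. The part of length in these list medians and in single results was not tested.

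**Figure D5:**
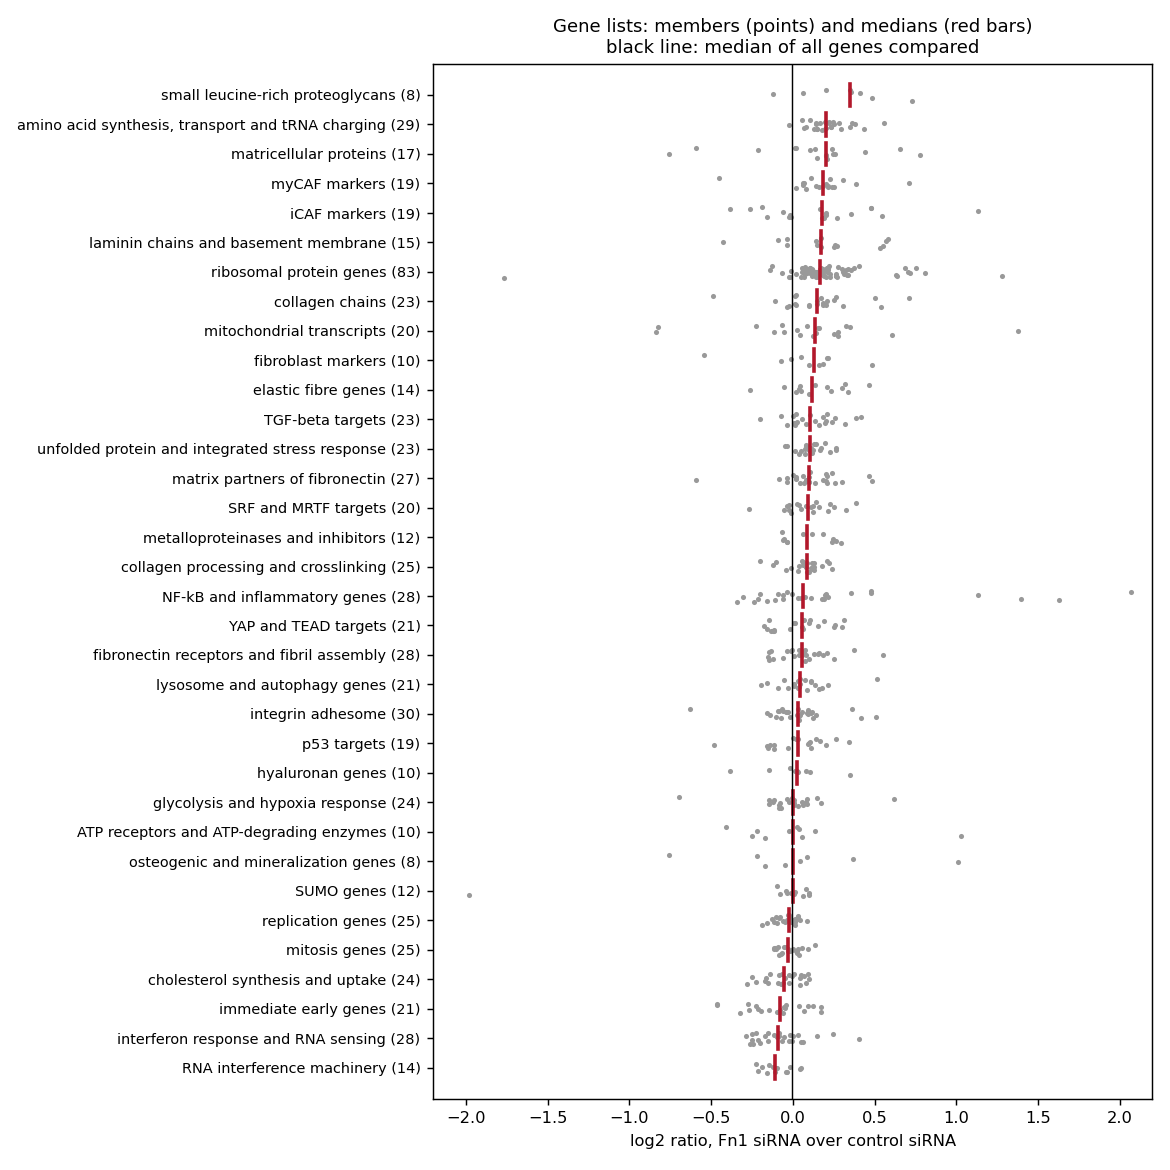
Log2 ratios of Fn1 siRNA over control siRNA (x axis) for the members (gray points) of each gene list with 8 or more genes compared, sorted by the list's median (red bars), with the number of genes in parentheses and the median of all genes as a black line. Small leucine-rich proteoglycans have the highest median, at 0.35, followed by amino acid genes and matricellular proteins, both at 0.20. RNA interference genes have the lowest, at -0.11.

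Inflammatory genes contained a few large ratios at very low levels. Of 28 genes of NF-kB signalling and inflammation compared, 4 were over 2-fold higher (against 0.523% of all genes) and none lower, while the median was 0.06. The 4 were Icam1, Ccl20, Csf2 and Cxcl2, all under 3 CPM in both libraries. Among genes with a mean of 1 to 3 CPM, 3.05% were beyond 2-fold in either direction. Icam1, Csf2 and Cxcl2 reached 1 CPM with Fn1 siRNA only, so the filter itself favoured a high ratio for them. Icam1, a leukocyte adhesion molecule, had 2.84 CPM with Fn1 siRNA (63 counts) and 0.654 CPM with control siRNA (17 counts), against 0.0423 CPM in untreated PDX CAFs, a log2 ratio of 2.07 (1.31 to 2.97). The chemokine Ccl20 had 2.79 CPM with Fn1 siRNA and 1.04 CPM with control siRNA (1.40, 0.74 to 2.12) and the growth factor Csf2 1.13 and 0.346 CPM (1.63, 0.54 to 2.97). Both had 0 counts in untreated PDX CAFs, a library in which 3 counts equal 0.127 CPM. The neutrophil chemokines Cxcl1 and Cxcl5, at higher levels, had smaller ratios. Cxcl1 had 151 CPM with Fn1 siRNA and 117 CPM with control siRNA, against 7.79 CPM in untreated PDX CAFs (0.35, 0.28 to 0.43), and Cxcl5 had 28.8 and 20.5 CPM with Fn1 and control siRNA (0.48, 0.31 to 0.65). Some members lay on the other side, among them the inhibitor gene Nfkbia at -0.24 (-0.33 to -0.15), the NF-kB subunit gene Relb at -0.31 (-0.44 to -0.17) and Birc3, which encodes a ubiquitin ligase, at -0.34 (-0.54 to -0.14). The inhibitor gene Nfkbie was at 0.21 (-0.07 to 0.50) and the feedback gene Tnfaip3 at -0.09 (-0.21 to 0.02). Ptgs2, which encodes cyclooxygenase 2, was at -0.01, with 337 CPM with Fn1 siRNA and 335 CPM with control siRNA. Of the 28, 10 had an interval above 0 and 7 below, against 14.5% and 13.2% of all genes, and 9 of the 28 were at 100 CPM or more.

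Several groups lay slightly below their control levels. Of 28 interferon response and RNA sensing genes, 1 had an interval above 0 and 10 below, against 14.5% and 13.2% of all genes, and the median was -0.09. Irf7, a master regulator of interferon responses, had 72.0 CPM with Fn1 siRNA and 87.0 CPM with control siRNA (-0.29, -0.38 to -0.19), and the RNA sensor gene Ddx58 141 and 162 CPM (-0.21, -0.28 to -0.14), while Isg15 was at -0.0018. Of 14 genes of the RNA interference machinery, 6 had an interval below 0 and none above, with a median of -0.11. Ago2, the Argonaute that slices targets, had 189.7 CPM with Fn1 siRNA and 218 CPM with control siRNA (-0.21, -0.27 to -0.16). Of 21 immediate early genes, 10 had an interval below 0 and 3 above, with a median of -0.08. Nr4a1, a nuclear receptor, had 16.2 CPM with Fn1 siRNA and 22.2 CPM with control siRNA (-0.46, -0.66 to -0.27), and Jun and Egr1 were both at -0.27. Of 24 cholesterol synthesis and uptake genes, 7 had an interval below 0 and none above, with a median of -0.06, led by Hsd17b7 at -0.28. Over all genes the shares below and above were 13.2% and 14.5%, and at 100 CPM or more 20% and 31.2%. That level was reached by 6 of the interferon, 5 of the RNA interference, 9 of the immediate early and 9 of the cholesterol genes. The RNA interference genes had a median length of 8077.5 bases, at the upper end of length group 4, whose median ratio was -0.02. None of the members of these 4 lists was over 1.5-fold in either direction.

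Most markers of fibroblast states differed little. All 19 myCAF markers compared, those of contractile CAFs, lay within 2-fold, as did 99.1% of all genes. Of the 19, 14 had an interval above 0 and none below, and the median was 0.19. An interval beyond 1.2-fold was found for 2 of the myCAF markers, Col11a1 and Col12a1, against 1.30% of all genes higher. Acta2, which encodes smooth muscle actin, had 5646 CPM with Fn1 siRNA and 4811 CPM with control siRNA (0.22, 0.21 to 0.23), both above the 1501 CPM of untreated PDX CAFs, and Myl9 was at 0.25. Of 19 iCAF markers, those of inflammatory CAFs, 8 had an interval above 0 and 2 below, and the median was 0.18 but -0.02 among the 8 markers at 100 CPM or more. The scarce Cxcl2, at 1.13 (1.22 and 0.5385 CPM), was the 1 iCAF marker over 2-fold, against 0.523% of all genes higher. Cxcl2 reached 1 CPM with Fn1 siRNA only. An interval beyond 1.2-fold was found for 3 of the 19, against 1.30% of all genes higher. Of 4 antigen-presenting (apCAF) and mesothelial markers compared, 1 had an interval below 0 (Krt19, -0.32) and none above. Of 10 fibroblast markers, 7 had an interval above 0 and 1 below (S100a4, -0.54). Of 23 TGF-beta target genes, 12 had an interval above 0 and 1 below (median 0.10), of 20 SRF and MRTF targets 12 and 1 (0.09), and of 21 YAP and TEAD targets 10 and 7 (0.06). Over all genes the shares above and below were 14.5% and 13.2%, and at 100 CPM or more 31.2% and 20%. That level was reached by 12 of the myCAF markers, 8 of the iCAF markers and 15 of the TGF-beta targets. It was also reached by 16 of the SRF and MRTF targets, 15 of the YAP and TEAD targets and 7 of the fibroblast markers. No apCAF marker reached it. The median level was 426 CPM for the myCAF markers and 394 CPM for the SRF and MRTF targets. Genes at 300 CPM or more had a median log2 ratio of 0.05. Replication and mitosis genes, 25 each, had medians of -0.02 and -0.03, with Mki67 at -0.12 (273 and 293 CPM) and Mcm2 at -0.01 (312 CPM in both libraries).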

How the data were processed

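The authors deposited raw counts per gene for 5 libraries of mouse CAFs, 1 per condition, without normalization. Coordinates are of build mm10, per the submitters' processing notes. Aligner, counting tool and strand setting: not given in the sources used here. Groups came from the sample labels. Counts were scaled by TMM (edgeR 4.0.16 in R 4.3.3). Levels in CPM used factors of all 5 libraries and ratios those of the pair, which differ by 0.013 in log2. Log2 ratios had 0.5 counts added in proportion to library size. Intervals (95%) are exact binomial for ratios and exact Poisson for levels, from scipy 1.17.1, and cover counting error only. No p-value was computed, because no condition was replicated. Code was tested on simulated data. Unnamed transcripts (104) took 0.0529% of counts with Fn1 siRNA. Shared windows, 50 bases taken every 5 bases, came from GENCODE M21.

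Members and gene lists (36, and 4 added later) were chosen with earlier results of these data known. Genes were named by rule: the 4 marker genes, the largest ratios at 10 and at 100 CPM, the intervals farthest from 0, and in each list the largest ratios and highest levels. Genes named in lists beyond this rule were chosen after their values were seen. Other scalings (upper quartile, library totals, size factors of DESeq2 1.42.0), added counts, filters and another control were tried.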

Additional observations from a re-analysis of the deposited data

How the results depend on the processing

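With 1 library per condition no replicate could be left out. No paired analysis was possible because each group has 1 library. Under the other scalings (DESeq2 size factors, library totals, upper quartile) the counts of genes past each fold stayed within 1.5 times. None of 91 named genes past 2-fold or with an interval beyond 1.2-fold changed sign, and Fn1 was at -1.94 by library totals. Of 39 list medians, many of them small, 2 changed sign by DESeq2 size factors, 3 by library totals and 2 by upper quartile. The sign changed for 1 list median with 5 counts added, 4 without a filter and 1 at 10 CPM or more. The 2-fold counts on the higher and the lower side were 45 and 20 with 5 counts added, 2451 and 2776 without a filter, 8 and 5 at 10 CPM or more, 39 and 22 among protein-coding genes without predicted genes, and 10 and 5 with the whole interval beyond 2-fold. Over 1.5-fold they were 3344 and 3493, 38 and 15, and 159 and 150 without a filter, at 10 CPM and among those protein-coding genes. With the interval beyond 1.2-fold, 127 were lower without a filter, 99 higher and 32 lower at 10 CPM, and 105 higher and 31 lower with 99% intervals. Fewer or more genes were compared in these settings. Leaving out genes that share windows, an alternative chosen after seeing the data, gave 46 and 35 over 2-fold.

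With untreated PDX CAFs as the control, 431 and 398 genes were over 2-fold, 1114 and 1246 over 1.5-fold and 1519 and 1380 had an interval beyond 1.2-fold, and Fn1 was at -1.69. Of the 91 named genes, 18 changed sign. Gm9824 (0.22), Gm13123 (0.49), mt-Co3 (0.015), Serpinb2 (1.80), Aqp1 (0.27), Cadm4 (0.16), Nr4a1 (1.09), Tinagl1 (0.26), Prl2c3 (0.73) and Prl2c2 (0.32) turned positive. Aspn (-0.70), Marcks (-0.27), Rpl39 (-0.11), Lama4 (-0.074), Ndrg1 (-0.20), Col11a1 (-0.35), Ctla2a (-0.36) and Rpl35a-ps2 (-0.35) turned negative. Of 39 list medians, 11 changed sign. The untreated cells were not transfected, so transfection and the Fn1 siRNA cannot be told apart in these values.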

Other observations

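Other transcript classes and single genes lie outside the groups above. Of 20 mitochondrial transcripts compared, 14 had a positive ratio, against 49.1% of all genes compared, with a median of 0.13. Of the 20, 10 had an interval above 0 and 4 below, against 14.5% and 13.2% of all genes. Of the 20, 7 shared 20% or more of their windows with other genes. The tRNA gene mt-Tc had 8.69 CPM with Fn1 siRNA and 3.31 CPM with control siRNA (log2 ratio 1.38, counting interval 1.01 to 1.76), whereas mt-Cytb, which encodes cytochrome b, was at 0.04 (1624 and 1563 CPM). Antisense RNAs (157 genes) had a median of -0.12 and processed pseudogenes (567 genes) one of 0.05, against -0.0023 over 11643 protein-coding genes.

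Among scarce genes, Bmp4, a ligand of the TGF-beta superfamily, had 3.47 CPM with Fn1 siRNA and 1.69 CPM with control siRNA (log2 ratio 1.01, 0.47 to 1.59), and 3.51 CPM in untreated PDX CAFs. Serpinb2, an inhibitor of plasminogen activators, had 15.1 CPM with Fn1 siRNA and 25.8 CPM with control siRNA (-0.78, -0.98 to -0.59), both above the 4.32 CPM of untreated PDX CAFs. Aqp1, a water channel, had 9.96 CPM with Fn1 siRNA and 15.7 CPM with control siRNA (-0.67, -0.91 to -0.43). Adgrg6, an adhesion receptor that binds laminin and collagen IV, had 9.28 CPM with Fn1 siRNA and 14.5 CPM with control siRNA (-0.65, -0.91 to -0.40), and 20.2 CPM in untreated PDX CAFs.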
